A study of Macaca mulatta with 36 samples.

Results

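The 6 genes described here, DUSP1, NR4A1, ARC, NPAS4, ATF3 and HOMER1, are immediate early or activity-regulated genes, whose transcription in neurons rises soon after synaptic activity. They were taken by symbol: every probe set (a group of short probes that together read 1 transcript) paired with 1 of these symbols and no other was kept. The rule uses no measured value, but the genes were chosen with earlier results of these data known. This gave 12 probe sets among the 52707 tested, and 6 genes among the 14132 that had a probe set with a single symbol. DUSP1 and NR4A1 had 2 probe sets each, ARC and NPAS4 1 each, and ATF3 and HOMER1 3 each.

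The samples were hippocampus of male rhesus macaques (Macaca mulatta), 9 with evidence of encephalitis caused by simian immunodeficiency virus (SIVE) and 9 uninfected controls, with RNA of each animal read on 2 Affymetrix arrays. Of the SIVE animals, 4 carried the label of anti-CD8 treatment and were all 6 years old, and 5 had no such treatment and were 2 to 5 years old. Of the control animals, 2 were anti-CD8 treated and 3 to 4 years old, and 7 were untreated and 3 to 8 years old. Anti-CD8 antibody is given to macaques to remove CD8 lymphocytes; its dose and timing are not given in the sources used here. Infection and encephalitis cannot be told apart, because the labels hold no group of infected animals without encephalitis. Treatment within SIVE cannot be told apart from age, and neither can SIVE among the treated animals.

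As background, calcium that enters an active neuron and growth factor signals both reach the nucleus through kinases, which switch on a first wave of genes within minutes and without new protein synthesis. Some of these genes encode transcription factors (NR4A1, an orphan nuclear receptor; NPAS4, a factor of neurons that responds to calcium entry; ATF3, a factor also induced by cell stress). DUSP1 is a phosphatase that switches off MAP kinases, ARC is a postsynaptic protein that promotes the removal of AMPA receptors, and HOMER1 encodes scaffolds that tie metabotropic glutamate receptors to the postsynaptic density, together with a short, activity-induced form. The hippocampus, where activity changes synaptic strength during learning, is a classic place to study them.

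Values are log2 signals after robust multi-array averaging (RMA), averaged over the 2 arrays of an animal, so that a difference of 1 is a 2-fold change. Means are given ± SD over animals and differences ± SE. Differences were tested with limma over all 52707 probe sets with Benjamini-Hochberg adjustment, and a probe set was called at an adjusted p under 0.05. Array medians lay between 5.59 and 5.75. The arrays of an animal correlated at 0.992 to 0.997, except those of Control 9, which correlated at 0.976. SIVE 2, SIVE 3 and Control 8, all anti-CD8 treated, stood apart in the difference between the signal at the 3′ and the 5′ end of reference transcripts, a sign of RNA quality: it was 0.955 to 1.45 in them and 0.104 to 0.466 in the other 15 animals. Its mean was 0.442 ± 0.374 in SIVE and 0.415 ± 0.394 in controls (SD, n = 9 each; exact two-sided permutation p = 0.918, also after adjustment over 8 measures).

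DUSP1, NR4A1, ARC and NPAS4 were lower in SIVE than in control hippocampus. At the brightest probe sets of DUSP1, NR4A1 and ARC the difference was 1.54-fold to 1.89-fold; NPAS4 and the dimmer NR4A1 probe set were read close to background in SIVE, which limits their folds. ATF3 gave opposite signs at different probe sets, 1 of which was higher in SIVE, and HOMER1 passed at none of its 3. By limma, 5 of the 12 probe sets, from 4 genes, were lower and 1 was higher. Over all probe sets 683 were lower, which is 1.3%, and 1912 were higher, which is 3.63%; with all arrays shifted to 1 common median these counts were 398 and 2159, and those of the members stayed at 5 and 1. The median difference of the 12 was -0.39 against -0.04 for all probe sets, and 11 of the 12 were negative against 62.7% of all. At the brightest probe set of each gene, 4 of the 6 genes were lower, against 1.51% of all genes (5.72% were higher). None of the 12 had every SIVE animal below every control animal, a pattern found in 0.101% of all probe sets. Because the samples are pieces of tissue, fewer cells of a type and less RNA per cell cannot be told apart.

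**Figure D1:**
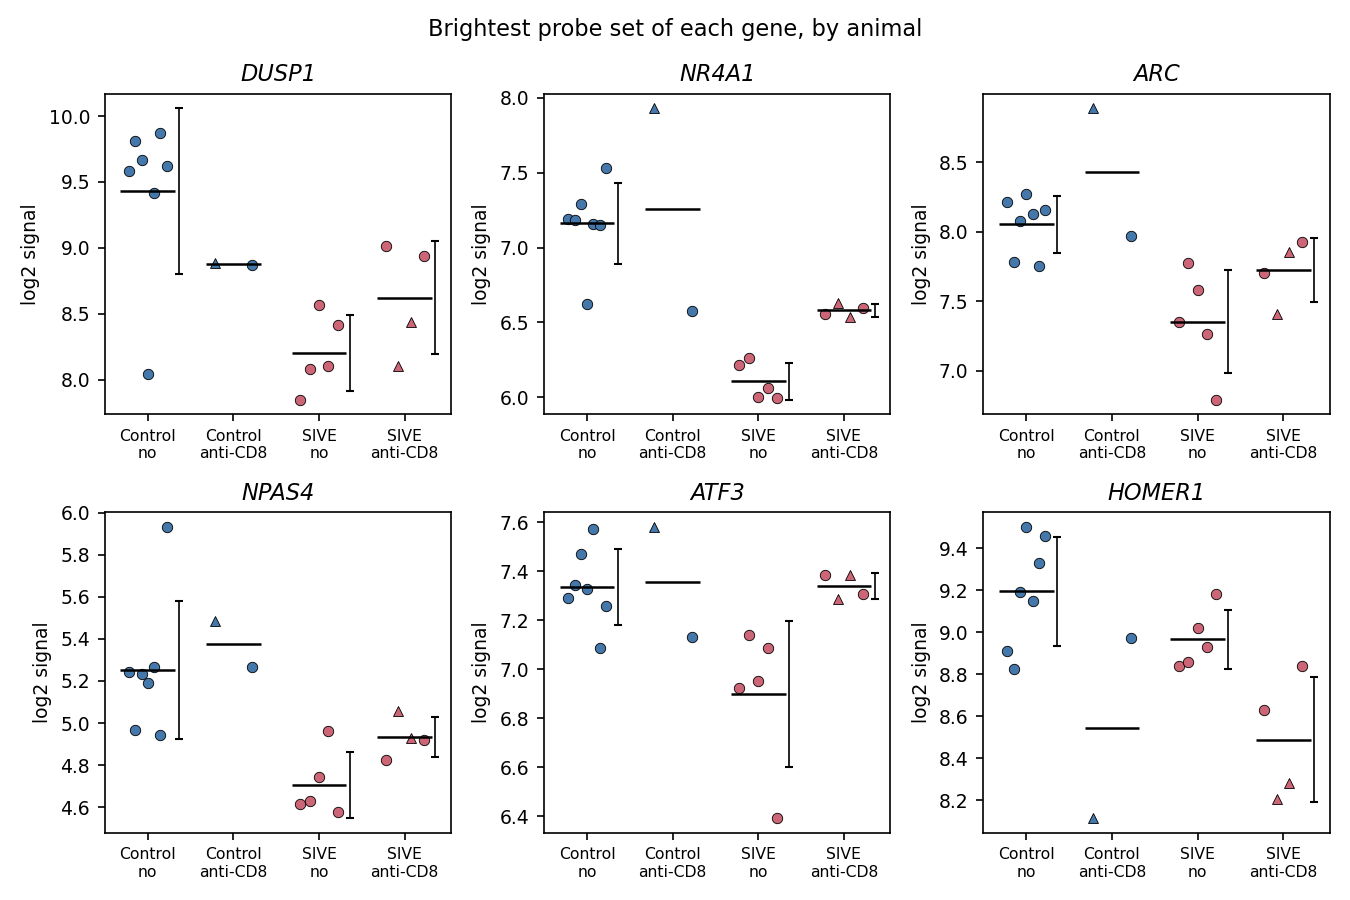
Log2 signal (y axis) of the brightest probe set of each gene in each animal, by group and anti-CD8 label (x axis); points are animals, triangles are the 3 animals with a high 3′ signal, lines are means and bars 1 SD in groups of more than 2. DUSP1, NR4A1, ARC and NPAS4 sit lower in SIVE, with 1 to 7 of the 9 SIVE animals below the lowest control.

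DUSP1, the phosphatase that ends MAP kinase signals, was read brightly by MmuSTS.4085.1.S1_at. Its log2 signal in the controls was lowest at 8.05, had a median of 9.58 and was highest at 9.87. In SIVE the lowest, median and highest signals were 7.85, 8.42 and 9.02. The groups overlapped: 6 of 9 controls lay above the highest SIVE animal, but the lowest control, Control 4, lay among the SIVE animals, so that 1 SIVE animal was below it. The mean was 8.39 ± 0.40 in SIVE and 9.31 ± 0.60 in controls (SD, n = 9 each), a difference of -0.92 ± 0.22, or 1.89-fold (limma adjusted p = 0.0180).

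The dimmer DUSP1 probe set, MmugDNA.24043.1.S1_at, had a signal close to the median of all probe sets, at 5.46 ± 0.27 in SIVE and 5.96 ± 0.36 in controls. Its difference of -0.50 ± 0.14 had the same sign and missed the threshold (limma adjusted p = 0.0517). It passed when Control 8 was left out (0.0145), when SIVE 1 was left out (0.0174) and when Control 4 was left out (0.0253). The 2 probe sets of DUSP1 ordered the animals alike within groups, with r = 0.86 over the 18 animals after removal of group means. Animals differed from each other far more than arrays did at the brighter one: the SD between animals was 0.508 and that between the arrays of an animal 0.0794, a ratio of 6.39 against a median of 1.31 over all probe sets.

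NR4A1, the nuclear receptor, showed the widest gap of the 12 probe sets. At MmugDNA.18685.1.S1_s_at the lowest, median and highest control signals were 6.58, 7.19 and 7.93, and those of SIVE were 6.00, 6.26 and 6.63. Of the SIVE animals 7 lay below the lowest control, and 7 controls lay above the highest SIVE animal; the controls that overlapped were Control 4 at 6.63 and Control 9 at 6.58. The means were 6.32 ± 0.27 and 7.18 ± 0.41 (SD, n = 9 each), so NR4A1 was lower in SIVE by 1.82-fold, a difference of -0.86 ± 0.15 (limma adjusted p = 0.0014).

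The other NR4A1 probe set, MmugDNA.18685.1.S1_at, gave control signals of 4.45 at the lowest, 6.07 at the median and 6.82 at the highest. In SIVE these were 3.37, 3.84 and 4.85. Control 4 and Control 9 were again the low controls, with 4.45 and 4.66. The difference was -1.91 ± 0.29, or 3.75-fold (limma adjusted p = 2.58e-04), from means of 3.97 ± 0.46 in SIVE and 5.88 ± 0.82 in controls. The fold is limited by the floor of the array: the SIVE mean was above 38 of the 59 reporter probe sets, which have no macaque target and had a median of 3.62, and the control mean was above 58 of them. The signal in SIVE thus lay near the level of probes with no target, where arrays tend to understate differences. The 2 identifiers share a target number, so their agreement, with r = 0.87 over 18 animals after removal of group means, is not that of separate designs. Control 9 had the widest gap between its own arrays among the members, 1.07 at this probe set.

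NPAS4, the calcium-responsive factor of neurons, was read by MmuSTS.1598.1.S1_at, whose level was above that of 38% of all probe sets. The lowest, median and highest log2 signals were 4.94, 5.24 and 5.93 in controls. They were 4.58, 4.82 and 5.06 in SIVE. Of the SIVE animals 7 lay below the lowest control, and the overlap was formed by SIVE 2 and SIVE 8 with Control 2 and Control 6. NPAS4 was lower in SIVE, with means of 4.81 ± 0.17 and 5.28 ± 0.29 (SD, n = 9 each), a difference of -0.47 ± 0.11, or 1.39-fold (limma adjusted p = 0.0127). The SIVE mean was above 52 of the 59 reporter probe sets and the control mean above 55, so this fold too is limited by the floor. A filter that kept probe sets whose higher group mean reached the median level of all probe sets removed NPAS4 and the dimmest ATF3 probe set, so NPAS4 has no value under it. The ratio of the SD between animals to that between arrays was 1.57, the lowest of the 4 genes that fell.

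ARC, the postsynaptic protein of receptor removal, was read by MmuSTS.2842.1.S1_at. The lowest, median and highest log2 signals were 7.75, 8.13 and 8.89 in controls. They were 6.79, 7.58 and 7.93 in SIVE. Of the SIVE animals 6 lay below the lowest control, and 7 controls lay above the highest SIVE animal. The means were 7.52 ± 0.36 and 8.14 ± 0.33 (SD, n = 9 each), a difference of -0.62 ± 0.15, or 1.54-fold (limma adjusted p = 0.0208). The highest control, Control 8, was 1 of the 3 animals with a high 3′ signal; without those 3 animals ARC differed by -0.56 ± 0.14 (limma adjusted p = 0.0227).

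The calls of DUSP1 at its brighter probe set, of both NR4A1 probe sets, of ARC, of NPAS4 and of the ATF3 probe set described next held in each of 18 fits that left out 1 animal. The highest adjusted p among those fits was 0.0427, for ARC without SIVE 5. With age, with the anti-CD8 label or with the 3′ to 5′ difference as a covariate, or without the 3 animals of high 3′ signal, 6 of the 12 probe sets were lower and 1 higher, the dimmer DUSP1 probe set being the one added. A block on replicate numbers, which are not stated to pair the animals, left 2 lower, both of NR4A1, and 0 higher. The limma adjusted p was then 0.0840 for the brighter DUSP1 probe set, 0.0615 for ARC, 0.0502 for NPAS4 and 0.0892 for that ATF3 probe set.

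**Figure D2:**
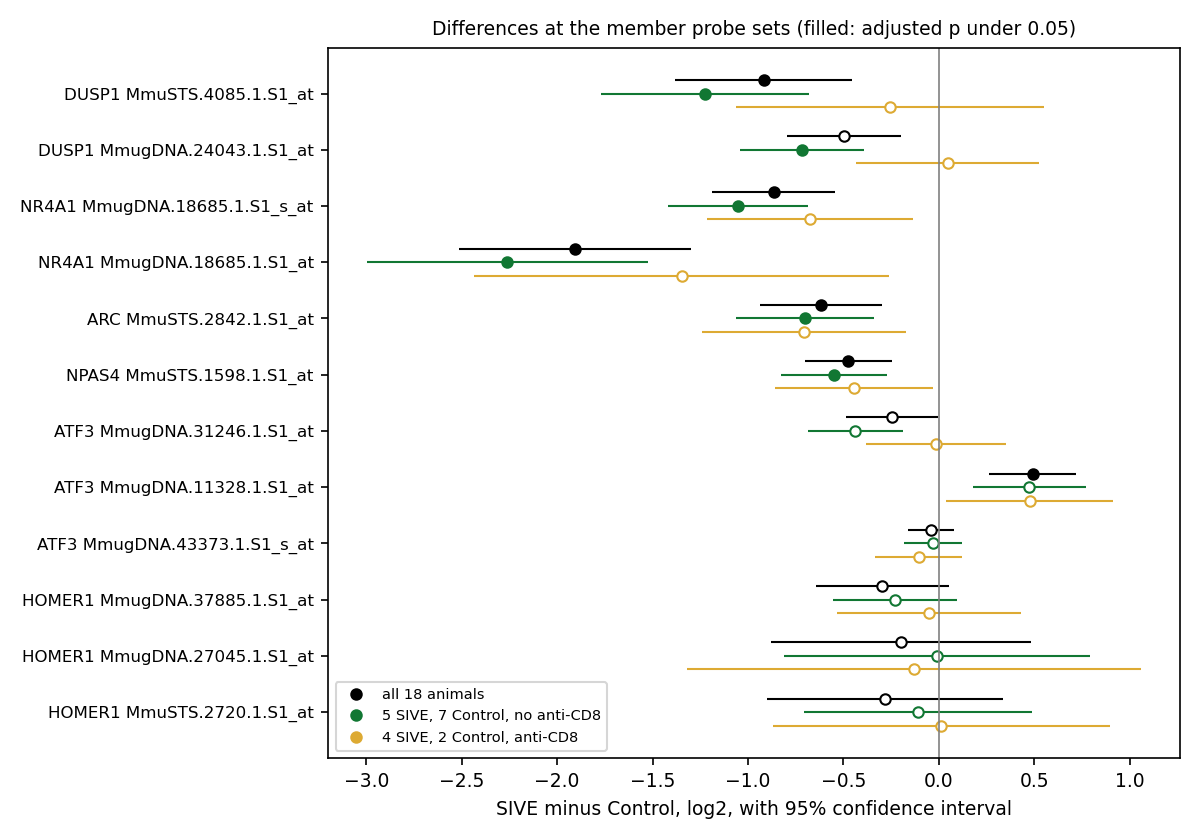
SIVE minus control difference in log2 signal (x axis) with its 95% confidence interval for the 12 probe sets (y axis), in all 18 animals, in the 12 untreated animals and in the 6 treated ones; filled points have an adjusted p under 0.05. The widest difference is that of NR4A1, -1.91 in all animals, and no point is filled among the treated animals.

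ATF3, the stress-induced factor, did not give 1 answer. At its brightest probe set, MmugDNA.31246.1.S1_at, the lowest, median and highest signals were 7.09, 7.33 and 7.58 in controls and 6.39, 7.14 and 7.38 in SIVE. The groups overlapped, with 3 SIVE animals below the lowest control and 3 controls above the highest SIVE animal. The difference of -0.25 ± 0.12 did not pass (limma adjusted p = 0.227). At MmugDNA.11328.1.S1_at the lowest, median and highest signals were 5.98, 6.27 and 6.62 in controls and 6.32, 6.76 and 7.12 in SIVE. Here 7 of 9 SIVE animals lay above the highest control, and ATF3 was higher in SIVE by 1.40-fold, 0.49 ± 0.11 (limma adjusted p = 0.0095). The dimmest probe set, MmugDNA.43373.1.S1_s_at, at 4.66 in SIVE and 4.70 in controls, differed by -0.04 ± 0.06.

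After removal of group means, the brightest ATF3 probe set correlated with the other 2 at -0.06 and 0.16 over the 18 animals, and those 2 with each other at -0.25. The probe sets of this gene therefore did not order animals alike, unlike those of DUSP1 and NR4A1. Averaged over its 3 probe sets ATF3 differed by 0.07 ± 0.06 (limma adjusted p = 0.511). The sources used here do not name the transcript or end of ATF3 that each probe set reads.

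HOMER1, the postsynaptic scaffold, did not pass at any of its probe sets, and the intervals of 2 of them are wide. At MmugDNA.37885.1.S1_at, the brightest, the lowest, median and highest signals were 8.12, 9.15 and 9.50 in controls and 8.21, 8.84 and 9.18 in SIVE. The difference of -0.30 ± 0.17 had a 95% interval from -0.64 to 0.05 (limma adjusted p = 0.313). At MmugDNA.27045.1.S1_at the animals spanned 6.76 in Control 6 to 9.40 in Control 4, and the difference of -0.20 ± 0.32 had an interval from -0.88 to 0.48. At MmuSTS.2720.1.S1_at the difference of -0.28 ± 0.29 had an interval from -0.90 to 0.33. These intervals still hold decreases as large as that found for ARC.

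At 2 of its 3 probe sets HOMER1 was lowest in the animals with a high 3′ signal. The 3 animals with a high 3′ signal were the 3 lowest of all 18 at MmuSTS.2720.1.S1_at, with 5.11 in Control 8, 5.20 in SIVE 2 and 5.39 in SIVE 3, against 6.37 or more in the other 15. They were also the lowest at MmugDNA.37885.1.S1_at, with 8.12, 8.21 and 8.28. These probe sets correlated at 0.91 after removal of group means, and each correlated with MmugDNA.27045.1.S1_at at 0.35 or less. At MmugDNA.27045.1.S1_at the same animals were not the lowest, with 7.84 in Control 8, 7.18 in SIVE 2 and 8.58 in SIVE 3. Without the 3 animals the differences at the first and the last of the 3 probe sets were -0.27 ± 0.11 (limma adjusted p = 0.130) and -0.16 ± 0.13 (limma adjusted p = 0.454). HOMER1 makes a long and a short form, and the sources used here do not name the one that each probe set reads.

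**Figure D3:**
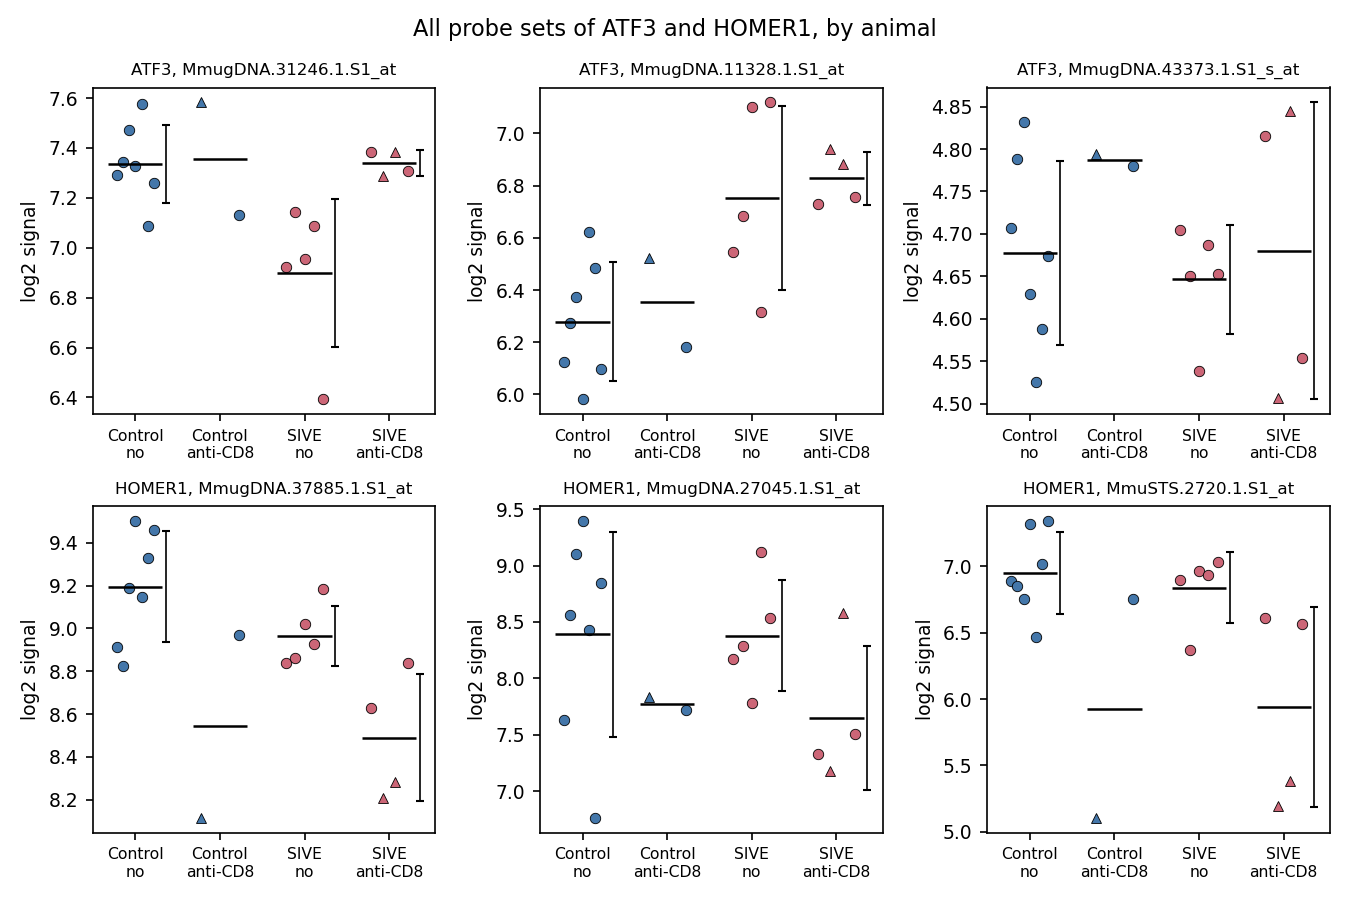
Log2 signal (y axis) of the 3 probe sets of ATF3 (top) and of HOMER1 (bottom) in each animal, by group and anti-CD8 label (x axis); points are animals, triangles the 3 animals with a high 3′ signal, lines means and bars 1 SD in groups of more than 2. One ATF3 probe set is higher in SIVE while its brightest is not, and the triangles are the lowest points of the first and last HOMER1 panels.

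Among the 12 animals without anti-CD8, the same 4 genes were lower in SIVE, now with both probe sets of DUSP1. By limma, 6 of the 12 probe sets were lower, against 0.791% of all probe sets, or 417. Higher calls were 0, against 2.34% of all. Of the 12, 8 had an unadjusted p under 0.05, 1 of them higher, against 17.8% of all in either direction. The count of 417 ranged from 187 without SIVE 9 to 655 without Control 8 or Control 9, and was also over 1.5 times lower without SIVE 5, SIVE 7, SIVE 8, Control 1, Control 3 or Control 4. At MmugDNA.18685.1.S1_s_at the NR4A1 signals of the 5 untreated SIVE animals were 6.22, 6.26, 6.00, 6.06 and 6.00. The 7 untreated controls had a lowest signal of 6.63, a median of 7.19 and a highest of 7.53. The groups did not overlap there, nor at the other NR4A1 probe set, where SIVE ran from 3.37 to 3.84 and the lowest control was 4.45. Such a separation was found in 1.63% of all probe sets and in no other probe set of the 12. The NR4A1 differences were -1.05 ± 0.17 (limma adjusted p = 0.0014) and -2.26 ± 0.35 (limma adjusted p = 7.40e-04). At the latter the untreated SIVE mean of 3.66 was above 31 of the 59 reporter probe sets and so not above background, and no fold is given.

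DUSP1 signals of the untreated SIVE animals at the brighter probe set were 7.85, 8.08, 8.57, 8.10 and 8.42, against 8.05, 9.62 and 9.87 at the lowest, median and highest of the untreated controls. All untreated controls but Control 4 lay above them. The differences were -1.23 ± 0.26 (limma adjusted p = 0.0114) and, at the dimmer probe set, -0.72 ± 0.15 (limma adjusted p = 0.0132).

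ARC in the untreated SIVE animals was 7.35, 7.77, 7.58, 7.27 and 6.79, and SIVE 6, at 7.77, was the 1 that reached the control range, which began at 7.75. The ARC difference was -0.70 ± 0.17 (limma adjusted p = 0.0314). NPAS4 in these animals was 4.61, 4.63, 4.74, 4.96 and 4.58, with SIVE 8 inside the control range, and its difference was -0.55 ± 0.13 (limma adjusted p = 0.0290). Both calls lie close to the threshold. ARC kept its call in 10 of 18 fits that left out 1 animal and NPAS4 in 12 of 18, with differences of -0.81 to -0.56 and -0.61 to -0.44 over the 18. ARC lost its call without SIVE 5, SIVE 8, SIVE 9, Control 1, Control 3, Control 4, Control 5 or Control 7, and NPAS4 without SIVE 5, SIVE 6, SIVE 7, SIVE 9, Control 1 or Control 3, each left out alone. The highest adjusted p, without SIVE 9, was 0.0983 for ARC and 0.0845 for NPAS4.

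The ATF3 probe sets kept their opposite signs without anti-CD8. The brightest differed by -0.44 ± 0.12 (limma adjusted p = 0.0531) and passed without SIVE 6 (0.0377) or Control 6 (0.0381), and also without a treated control, Control 8 or Control 9 (0.0366 each). The probe set that was higher in all animals differed by 0.47 ± 0.14 (limma adjusted p = 0.0807) and passed without SIVE 8 (0.0252). The HOMER1 differences were -0.23 ± 0.15, -0.01 ± 0.38 and -0.11 ± 0.28, none of which passed.

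Among the anti-CD8 treated animals, 4 with SIVE and 2 controls, limma called 0 of the 12 probe sets lower, against 0.209% of all. Higher calls were 0, against 0.844% of all. Of the 12, 5 had an unadjusted p under 0.05, 4 of them lower, against 15.5% of all in either direction. NR4A1 at MmugDNA.18685.1.S1_s_at was 6.56, 6.63, 6.53 and 6.60 in SIVE and 7.93 and 6.58 in the controls, so that Control 9 fell inside the SIVE range and Control 8 far above it. The NR4A1 difference was -0.67 ± 0.26 (limma adjusted p = 0.226). ARC was 7.70, 7.41, 7.85 and 7.93 in SIVE and 8.89 and 7.97 in controls, with no overlap, a difference of -0.71 ± 0.25 (limma adjusted p = 0.201). NPAS4 was 4.82, 5.06, 4.93 and 4.92 in SIVE and 5.49 and 5.26 in controls, also with no overlap, a difference of -0.44 ± 0.20 (limma adjusted p = 0.294). The share of all probe sets without overlap among so few treated animals was not counted, so no result is drawn from these separations. Without Control 9, which leaves Control 8 as the lone treated control and assumes that it varies like the other groups, both NR4A1 probe sets passed, at -1.35 ± 0.21 (limma adjusted p = 0.0056) and -2.38 ± 0.55 (limma adjusted p = 0.0428).

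DUSP1, called in the untreated animals, showed small differences among the treated ones. Its signals were 9.02, 8.10, 8.44 and 8.94 in SIVE and 8.89 and 8.87 in controls, so that both controls lay inside the SIVE range. The differences were -0.26 ± 0.38 (95% interval -1.06 to 0.55) and 0.05 ± 0.23 at its probe sets. Whether the effect of SIVE differed by label was tested directly as an interaction: it was 0.97 ± 0.46 at the brighter probe set and 0.76 ± 0.28 at the dimmer one, with unadjusted limma p of 0.0505 and 0.0128 and adjusted p of 1.0 for both. No probe set of the array passed this test (0% of all), so a different effect in treated animals was not shown for any member. Treated SIVE animals were all 6 years old and treated controls 3 to 4. SIVE and age therefore cannot be told apart among treated animals, and the interaction shares this limit. The part of age in these differences was not tested.

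Within SIVE, limma called 0 of the 12 probe sets different between anti-CD8 treated and untreated animals. Over all probe sets 1 was called, or 0.0019%. An unadjusted p under 0.05 was found at 4 of the 12 and at 15.3% of all. ATF3 at its brightest probe set was 7.38, 7.29, 7.38 and 7.31 in treated and 6.92, 7.14, 6.95, 7.09 and 6.39 in untreated SIVE animals, with no overlap and a difference of 0.44 ± 0.14 (limma adjusted p = 0.304). NR4A1 at MmugDNA.18685.1.S1_s_at also did not overlap, with each treated SIVE animal above each untreated one, and differed by 0.47 ± 0.20 (limma adjusted p = 0.310). How many of all probe sets separate by label within SIVE was not counted, so no result is drawn from the lack of overlap. HOMER1 differed by -0.48 ± 0.18, -0.73 ± 0.44 and -0.90 ± 0.32, none of which passed.

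Within the controls, 2 treated against 7 untreated, limma called 0 of the 12, as it did over the whole array (0% of all). An unadjusted p under 0.05 was found at 15.7% of all probe sets and at 3 of the 12, which were lower in the treated animals. They were the dimmer DUSP1 probe set, at -0.53 ± 0.21 (limma adjusted p = 0.304), and HOMER1 at MmugDNA.37885.1.S1_at and MmuSTS.2720.1.S1_at, at -0.65 ± 0.21 and -1.02 ± 0.39 (limma adjusted p = 0.304 for both). Without Control 9, with Control 8 as the lone treated control, these HOMER1 probe sets passed at -1.08 ± 0.24 (limma adjusted p = 0.0151) and -1.84 ± 0.43 (limma adjusted p = 0.0174), and NR4A1 at MmugDNA.18685.1.S1_s_at passed as higher, 0.77 ± 0.20 (limma adjusted p = 0.0265). One of the 2 treated controls and 2 of the 4 treated SIVE animals were those with the high 3′ signal. The part of that signal in the HOMER1 differences by label was not tested. These comparisons share their animals with the SIVE comparisons above.

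The order of animals was compared between genes within each group of 9, at the brightest probe sets. Of the 15 pairs of genes, 6 in SIVE and 0 in controls had an exact unadjusted p under 0.05, and 0 passed after adjustment over 30 tests in either group by Pearson's r or by Spearman's rho. The highest in SIVE was ARC with ATF3, r = 0.85 (exact permutation p = 0.0069, adjusted 0.0695) and rho = 0.78 (p = 0.0172, adjusted 0.172), which fell to r = 0.54 without the 2 animals farthest from the ARC median. NR4A1 rose with ATF3, r = 0.80 (exact permutation p = 0.0019, adjusted 0.0578), rho = 0.78 (p = 0.0172, adjusted 0.172), and 0.80 without the 2 animals farthest from the NR4A1 median. NR4A1 ran against HOMER1, r = -0.81 (exact permutation p = 0.0047, adjusted 0.0695), rho = -0.85 (p = 0.0061, adjusted 0.172), and -0.90 without the 2 animals farthest from the NR4A1 median. In each of these pairs the SIVE animals also differ by anti-CD8 label, which these correlations did not take into account. NR4A1 ran from 6.53 to 6.63 in treated and from 6.00 to 6.26 in untreated SIVE animals. ATF3 ran from 7.29 to 7.38 and from 6.39 to 7.14, so their r holds the gap between labels. Among the treated, SIVE 2 and SIVE 4 were the highest in NR4A1 and the lowest in ATF3. Among the untreated, SIVE 6 was the highest and SIVE 9 the lowest in both. The order within a label was not tested. The median r over the 15 pairs was 0.35 in SIVE and 0.02 in controls. After the linear relation to the 3′ to 5′ difference was removed, 4 pairs passed in SIVE and 1 in controls, DUSP1 with NR4A1.

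Member levels were also set against age and the 3′ to 5′ difference in both groups and against the interferon-induced gene ISG15 in SIVE, 30 relations in all. DUSP1 rose with age in the controls, rho = 0.97 (exact permutation p = 1.32e-04, adjusted 0.0040) and r = 0.79 (exact permutation p = 0.0151, adjusted 0.205), with r = 0.89 without the 2 animals farthest from the median age. This was the 1 relation that passed by rho, and none passed by r. The treated controls were young, Control 8 at 4 years and Control 9 at 3, and only Control 4 was lower than they were in DUSP1. Age and treatment are thus mixed in this relation, and the part of treatment was not tested. In SIVE, DUSP1 with age gave rho = 0.67 (exact permutation p = 0.0571, adjusted 0.314) and r = 0.51 (p = 0.161, adjusted 0.536), r being 0.42 without the 2 animals farthest from the median age. In both groups, ties in the distance from the median age were broken by animal number. With age as a covariate the difference between SIVE and controls in DUSP1 was -0.97 ± 0.17 (limma adjusted p = 0.0013).

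Genes with the most similar pattern were sought over the 18 animals after removal of group means, among the 9416 other genes at or above the median probe set level (9417 for NPAS4); these correlations are a description, and all points share the same arrays and RNA. DUSP1 was most like FOS, another immediate early transcription factor (r = 0.77), then SDE2 and CLYBL (0.76 and 0.73), where 99% of genes were below 0.495. FOS itself differed by -0.58 ± 0.27 between SIVE and controls (limma adjusted p = 0.223). NPAS4 was most like HS3ST2, a heparan sulfate sulfotransferase, at 0.93, NGEF, a guanine exchange factor, at 0.87, and KRT16 at 0.84. These 3 genes gave 0.93, 0.87 and 0.84 also without the 3 animals of high 3′ signal.

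ARC was most like KDM4B, ZNF710 and OSBP2 (0.91, 0.88 and 0.87), NR4A1 most like PRR14, HAGHL and PPOX (0.90, 0.89 and 0.89), and ATF3 most like ABHD17A, PAGR1 and LHPP (0.91, 0.90 and 0.90). HOMER1 was most like ENO2, CRLF3 and IRS2 (0.95, 0.95 and 0.94), which fell to 0.81, 0.81 and 0.79 without the 3 animals of high 3′ signal. For these 4 genes 1% of all genes lay above 0.782 to 0.890, so high values were common. NPAS4, below the median level, could not be ranked against the other members. None of the other 5 was among the 3 genes most like another member.

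Lists of genes that act with the members were described at the brightest probe set of each gene, where the median difference of all genes was -0.02. Over the 7 lists, 120 genes other than the members were measured; 2 were lower, 11 were higher and their median was -0.05. Over all genes 1.51% were lower and 5.72% higher, so decreases were about as rare in these lists as elsewhere. FOSB, JUN, EGR1, EGR3 and NR4A3 are among the listed genes that were not analysed here.

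Of the rapid transcription factors, the first-wave regulators like FOS, 19 of 25 were measured; 0 were lower and 2 higher, with a median of -0.02. KLF6 rose by 1.06 ± 0.16 (limma adjusted p = 2.71e-04), with its 5 other probe sets of the same sign, and MYC rose by 0.45 ± 0.10 (limma adjusted p = 0.0131). KLF2 differed by -0.51 ± 0.15 and did not pass (limma adjusted p = 0.0645). NR4A2 differed by -0.05 ± 0.19 at its brightest probe set (limma adjusted p = 0.919). Its 4 other probe sets were also negative, and 1 of them was called lower. Of the feedback regulators of signalling and mRNA, 25 of 29 were measured, with 0 lower and 5 higher and a median of 0.07. These were CDKN1A, a brake of the cell cycle, at 0.79 ± 0.20 (limma adjusted p = 0.0220), the kinase PIM1 at 0.57 ± 0.11 (0.0038), the phosphatase DUSP5 at 0.51 ± 0.15 (0.0495), TIPARP at 0.43 ± 0.11 (0.0240) and GADD45B at 0.41 ± 0.10 (0.0176).

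Of the 10 MAP kinase phosphatases 7 were measured, and DUSP1 was lower while DUSP5, which acts on ERK in the nucleus, was higher; the next, DUSP16, differed by 0.21 ± 0.11 (limma adjusted p = 0.274). Of the synaptic and secreted activity-regulated genes 17 of 26 were measured and 0 passed by limma in either direction. Of these 15 were negative, with a median of -0.13. The neuropeptide precursor VGF, at -0.50 ± 0.14, missed the threshold by a margin lost in rounding (limma, unadjusted p = 0.0025), and the scaffold HOMER3 and the neuropeptide NPY differed by -0.35 ± 0.12 and -0.34 ± 0.13.

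Of the genes that carry calcium and growth factor signals to the nucleus 26 of 34 were measured and 0 passed by limma, with a median of -0.07; the smallest adjusted p values were those of the kinases RPS6KA1 (0.49 ± 0.18, adjusted p = 0.121) and MAPK3 (-0.27 ± 0.10, 0.141) and of the CREB coactivator CRTC1 (-0.31 ± 0.13, 0.161). Of the stress response genes that act with ATF3, 14 of 19 were measured, with 3 higher, 1 lower and a median of 0.13. CEBPB rose by 0.98 ± 0.11, DDIT3 by 0.37 ± 0.10 and CEBPG by 0.34 ± 0.10, all 3 of them C/EBP-type transcription factors, while the cystine transporter SLC7A11 fell by 0.56. Of the postsynaptic partners of ARC and HOMER1 15 of 23 were measured, with a median of -0.04. CAMK2G was lower at -0.27 ± 0.07 and NCSTN higher at 0.20 ± 0.06. The other probe set of NCSTN had the opposite sign. SHANK1 differed by -0.26 ± 0.09 without passing (limma adjusted p = 0.107).

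**Figure D4:**
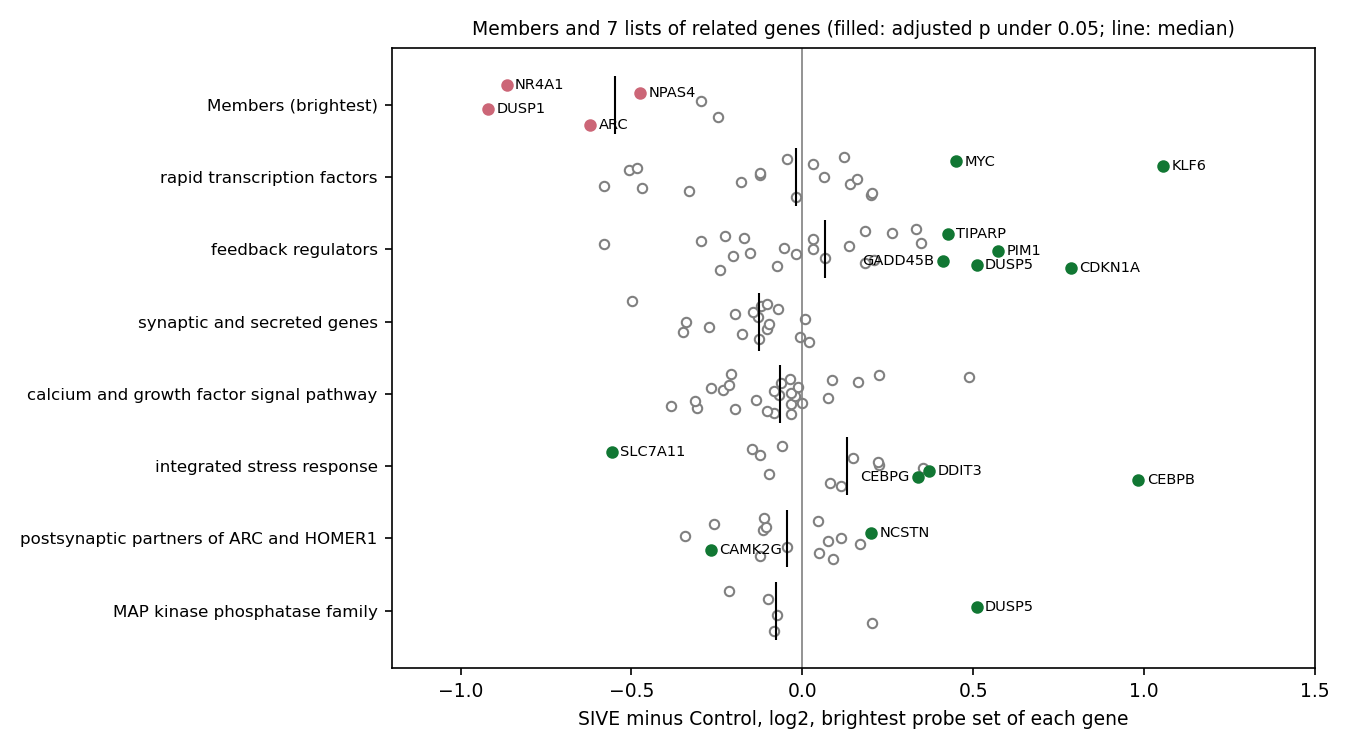
SIVE minus control difference in log2 signal (x axis) at the brightest probe set of each gene, for the 6 members and the other measured genes of 7 lists (y axis); each point is a gene, filled where the adjusted p is under 0.05, and vertical lines are medians. Filled points on the negative side are 4 members, SLC7A11 and CAMK2G; 11 other genes are filled on the positive side.

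Cell type markers moved with the groups. Of 12 neuron markers 6 were measured, all 6 negative, and 2 were lower, TUBB3 at -0.51 ± 0.12 (limma adjusted p = 0.0118) and SV2A at -0.27 ± 0.07 (0.0241). The mean of the 6 was 10.61 ± 0.07 in SIVE, ranging from 10.46 to 10.69, and 10.85 ± 0.13 in controls, from 10.67 to 11.04 (exact two-sided permutation p = 2.06e-04, adjusted over 8 measures 7.68e-04). The markers were chosen with earlier results of these data known, so the p of this mean is not independent evidence of a difference. Only 2 of the 9 controls lay below the highest SIVE animal, so this measure nearly separates the groups. When it was added to the fit as a covariate, after the data were seen, limma called 0 of the 12 probe sets, and over the array 50 lower and 463 higher.

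The differences themselves were then -0.94 ± 0.36 for DUSP1 at its brighter probe set (limma adjusted p = 0.398), -0.82 ± 0.25 and -1.73 ± 0.47 for NR4A1 (limma adjusted p = 0.196 and 0.116), -0.61 ± 0.25 for ARC (limma adjusted p = 0.430) and -0.27 ± 0.17 for NPAS4 (limma adjusted p = 0.651). The standard errors of the 12 probe sets were 1.53 to 1.63 times those without the covariate. The differences of DUSP1, NR4A1 and ARC at these probe sets kept nearly their size, while that of NPAS4 shrank by 1.76 times and that of the dimmer DUSP1 probe set by 2.00 times, to -0.25 ± 0.22 (limma adjusted p = 0.770). Because the covariate nearly separates the groups and the standard errors grew, these sizes cannot tell the genes apart, and no result is drawn from them.

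**Figure D5:**
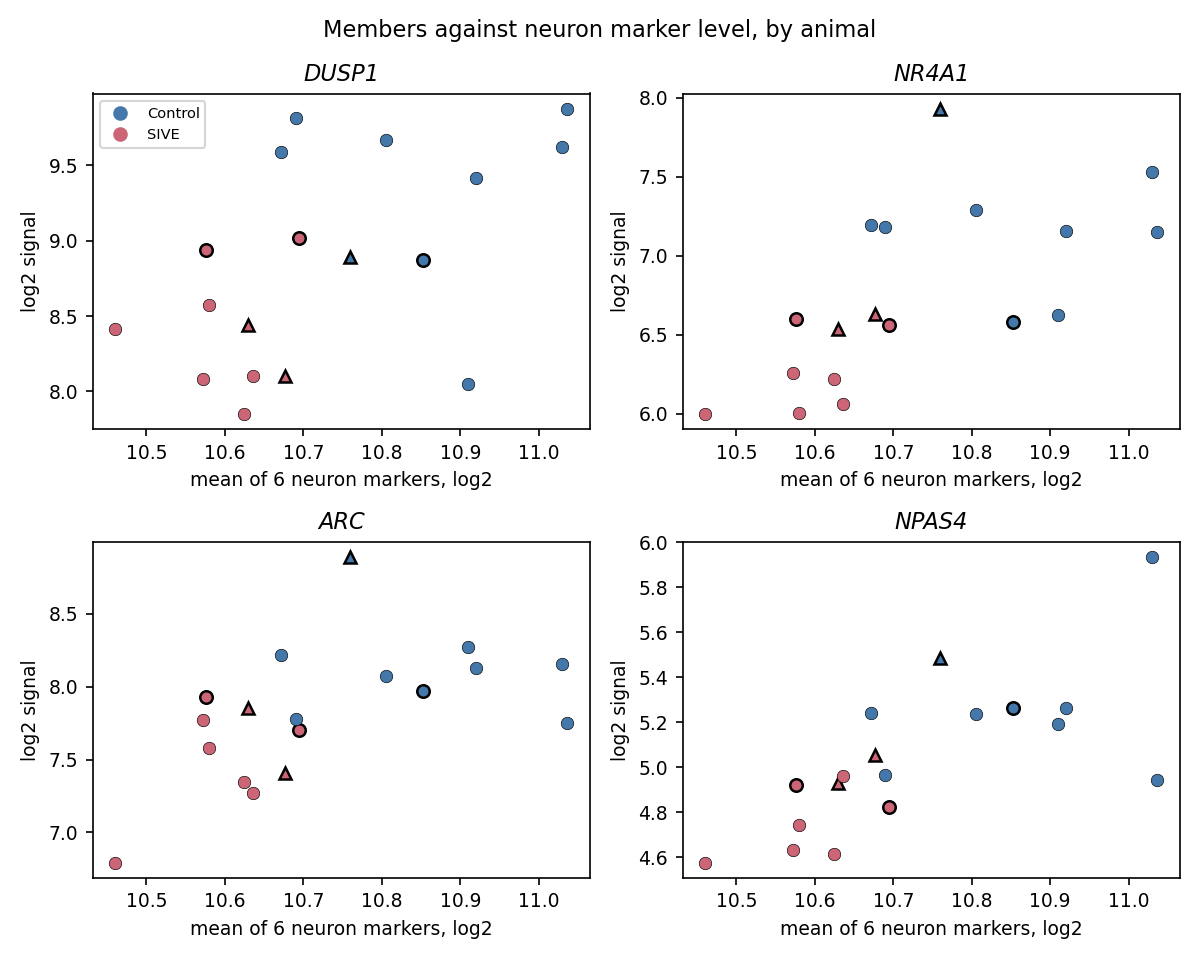
Log2 signal (y axis) of the brightest probe set of DUSP1, NR4A1, ARC and NPAS4 against the mean log2 signal of 6 neuron markers (x axis); each point is an animal, coloured by group, with a thick edge for anti-CD8 treatment and a triangle for a high 3′ signal. SIVE animals lie between 10.46 and 10.69 on the x axis and controls between 10.67 and 11.04, so that the groups barely meet.

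Other markers moved as well. Of 9 measured microglia and macrophage markers 3 were higher, LYZ at 2.71 ± 0.30, PTPRC at 1.52 ± 0.16 and AIF1 at 0.83 ± 0.17. The other 6 did not pass and 5 of them were negative. These were CD68, CX3CR1, P2RY12, TMEM119 and ITGAM, at -0.05, -0.15, -0.44, -0.10 and -0.35. The list median was -0.05. The other probe set of CD68 had the opposite sign and was called higher. The mean level of the 9 ranged from 7.19 to 7.91 in SIVE and from 6.93 to 7.38 in controls. Of 6 endothelial markers 3 were higher, VWF at 0.98 ± 0.24, PECAM1 at 0.83 ± 0.18 and CDH5 at 0.52 ± 0.12, although the other probe set of VWF had the opposite sign. The list median was 0.31, with list means of 6.46 to 7.33 in SIVE and 6.19 to 6.99 in controls. Of 3 measured oligodendrocyte markers MBP and UGT8 were lower, at -0.32 ± 0.07 and -0.58 ± 0.14, and CNP differed by 0.06 ± 0.05 without passing (limma adjusted p = 0.486), with list means of 11.02 to 11.51 in SIVE and 11.21 to 11.66 in controls. Of 6 astrocyte markers SLC1A2 was lower at -0.52 ± 0.11 and GFAP higher at 0.36 ± 0.08, the other GFAP probe set having the opposite sign. The list median was -0.04, with list means of 10.77 to 11.24 in SIVE and 10.89 to 11.34 in controls. None of the 7 measured markers of dentate granule and pyramidal cells, the 5 of inhibitory neurons or the 5 of choroid plexus passed by limma. Their list medians were 0.03, -0.20 and -0.02, with 3, 4 and 3 markers negative. The markers of granule and pyramidal cells thus did not share the sign of the 6 neuron markers. The ranges of their list means overlapped between the groups. The part of cell composition in the differences of the members was not tested.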

How the data were processed

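RNA from hippocampus was hybridised to 36 Affymetrix rhesus arrays, 2 for each of 18 animals. The deposited values are log2 signals made by the authors with RMA, per the submitters' processing notes; the version and any later filter are not given in the sources used here. Of 52865 probe sets, 99 Affymetrix controls and 59 reporter probe sets were left out. Gene names came from the platform annotation, in which 24969 probe sets had 1 symbol, 361 several and 27535 none. The 2 arrays of an animal were averaged to 1 replicate. Groups came from the sample titles and the anti-CD8 label. The number of animals limits the precision.

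Differences were tested two-sided with limma 3.58.1 (lmFit and eBayes, R 4.3.3), with Benjamini-Hochberg adjustment over 52707 probe sets and a threshold of 0.05. The comparison of SIVE with controls used all 18 animals without covariates, and the anti-CD8 comparisons used 1 mean for each of the 4 combinations with a shared spread. The fit was tested on simulated data. Single measures and correlations over 9 animals used exact permutation tests (scipy 1.17.1). Intervals are 95% intervals of the fit.

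The genes named are all members, every gene of a pathway or marker list that passed at its brightest probe set, the 3 genes of each pathway list with the smallest adjusted p, and the 3 genes most like each member. Other listed genes are named where they limit these results. The members and lists were chosen with earlier results of these data known, so no list is independent evidence. Of 162 genes listed in the pathway lists, counted once each, 121 were measured.

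Alternatives were other scalings (a common median, quantile normalization), limma with a trended robust prior, a filter on dim probe sets, each array alone, all 36 arrays with the animal as a random block, covariates, the mean over a gene's probe sets, a block on replicate numbers and leaving out each animal. The neuron marker covariate and the fit of the 12 untreated animals on their own were chosen after seeing the data. Replicate numbers are not stated to pair the animals. Same-numbered SIVE and control animals correlated at -0.488 to 0.089 in their deviations from group means, which does not settle whether they were paired. No genome build is named in the files, so no positions are given.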

Additional observations from a re-analysis of the deposited data

Results flagged for a closer look

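Of 60 groups of 4 to 10 animals in which the highest and lowest animal were compared with the rest, 8 held an animal far from the others by Dixon's criterion; chance alone marks about 1 group in 20, and the groups overlap. DUSP1 in Control 4 was 8.05 at the brighter probe set, with the next untreated control at 9.42. NR4A1 in the same animal was 6.63 at MmugDNA.18685.1.S1_s_at, with the next at 7.15. ARC in Control 8 was 8.89, above the next control at 8.27. NPAS4 in Control 7 was 5.93, above the next untreated control at 5.26. ATF3 in SIVE 9 was 6.39 at its brightest probe set, below the next SIVE animal at 6.92. HOMER1 in Control 8 was 8.12 at MmugDNA.37885.1.S1_at, below the next control at 8.83, and 5.11 at MmuSTS.2720.1.S1_at, below the next at 6.47. HOMER1 in SIVE 6 was 6.37 at MmuSTS.2720.1.S1_at, below the next untreated SIVE animal at 6.90.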

How the results depend on the processing

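With 2 treated controls, the comparisons by label had wide intervals. Over all results of single member probe sets, 352 values of the comparison in all animals and 290 of that without anti-CD8 kept direction and side of the threshold; 11 and 11 passed newly, 10 and 14 lost their call, and 3 and 13 changed sign. The replicate block left 2 probe sets lower, both of NR4A1, and 0 higher, and the neuron marker covariate, which nearly separates the groups, left 0 and 0. ATF3 changed sign as the mean of its probe sets (0.0681, and 0.0016 without anti-CD8). Its dimmest probe set changed sign under quantile normalization (0.0053 and 0.0085) and with the second array alone (0.0417 and 0.0728). Without anti-CD8, HOMER1 at MmugDNA.27045.1.S1_at gave 0.0151 at a common median and -0.28 to 0.157 when single animals were left out, and at MmuSTS.2720.1.S1_at 0.0024 with the second array and -0.19 to 0.0086 without single animals; none of these passed. Without anti-CD8, 1 ATF3 probe set was higher with the second array alone, with 36 arrays and without SIVE 8 (0 to 1 over animals left out). Among treated animals ARC passed with 36 arrays (1 lower), and 0 to 2 were lower when single animals were left out, the 2 without Control 9. Within SIVE, 36 arrays gave 1 lower by label, HOMER1, and 1 higher, ATF3. Within controls 0 to 2 were lower and 0 to 1 higher, again without Control 9. After removal of the 3′ to 5′ relation 4 pairs of genes passed in SIVE and 1 in controls. Over all probe sets the lower calls ranged from 394 (without SIVE 5) to 996 (without SIVE 2), from 317 with the second array to 1414 with the first, and from 50 with the neuron marker covariate to 2785 with the anti-CD8 covariate. The causes were not tested.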

Other observations

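Single animals were low in some members and not in others. SIVE 9 was the lowest of the 9 SIVE animals in NR4A1, ARC, NPAS4 and ATF3 at their brightest probe sets (6.00, 6.79, 4.58 and 6.39) and the highest in HOMER1 (9.18), while its DUSP1 signal of 8.42 was at the SIVE median. Control 6 was the lowest control in ARC, NPAS4 and ATF3 (7.75, 4.94 and 7.09) and the highest in DUSP1 (9.87). Control 4 was the lowest control in DUSP1 (8.05) and the highest in HOMER1 (9.50), with ARC at 8.27.

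The SD between animals exceeded that between the arrays of an animal for 11 of the 12 probe sets, by up to 6.84 times at HOMER1 MmugDNA.27045.1.S1_at, and ATF3 MmugDNA.43373.1.S1_s_at was the exception with a ratio of 0.880. The ratio was 3.98 for ARC, and 2.84 and 2.18 for NR4A1.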
